A study of Mus musculus with 4 samples.

Results

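The genes described here are 7 markers of the classical monocyte, chosen by symbol: Ccr2, Ly6c2, Plac8, Ms4a4c, Fn1, Itga4 and Vcan. They were 7 of the 49993 genes counted in each of 4 bulk RNA-seq libraries of CD11b+ microglia, the brain's own macrophages, purified with magnetic beads from 10-month-old mice. All 4 libraries came from mice that carry APP/PS1, transgenes that make amyloid accumulate in the brain and serve as a model of Alzheimer's disease, so that no library without amyloid was compared. AD stands for APP/PS1+ asrij+/+ mice (2 libraries) and AD/KO for APP/PS1+ asrij-/- mice (2 libraries), in which asrij (Ociad1) was deleted constitutively, in blood cells as well as in the brain. The labels do not give the sex of the mice, how many mice went into a library, or whether replicates were separate animals, so that p-values measure only the spread between these libraries.

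Classical monocytes are made in the bone marrow and circulate in the blood. CCR2, a chemokine receptor on their surface, draws them out of the marrow and into inflamed tissue along gradients of its ligands. Microglia are seeded in the embryo and renew themselves in the brain, and Ccr2 is used to tell monocytes and cells derived from them apart from microglia. CD11b, the surface protein used for the purification, is carried by microglia, monocytes, neutrophils and border macrophages alike, so that none of these is removed by the selection.

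The libraries held from 13102622 to 19810076 counts. Ociad1, the deleted gene, was counted 691 and 1032 times in AD and 746 and 592 times in AD/KO, and its mean AD/KO level was 62.5% of that in AD. The deletion is therefore not visible as a loss of counts, and every direction below is a difference between libraries as labelled. Microglial markers were abundant in each library: Cx3cr1 stood at 3107, 2259, 3025 and 962 CPM (read counts scaled to library size by the TMM method, in the order AD replicate 1, AD replicate 2, AD/KO replicate 1, AD/KO replicate 2). AD/KO replicate 2 had the lowest microglial level and the highest astrocyte level, with a summed astrocyte list of 11958 CPM against 1903 to 4682 CPM in the other libraries. AD replicate 2 stood apart by its neutrophil genes, whose list of 14 summed to 5404 CPM against 834 to 1379 CPM elsewhere. Csf3r alone held 996 and 629 CPM of this in AD and 694 and 256 CPM in AD/KO. The order of the sums outside AD replicate 2 therefore depends on this gene. AD replicate 2 also had 1391 reads of Xist, the transcript of the inactive X chromosome, against 3 to 15 reads in the other libraries. The Y-linked Ddx3y had 609 reads in AD replicate 2 and 558 to 790 reads in the other libraries.

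The windows around the start sites of 4 of these genes are shown because 3 of them, Ccr2, Ly6c2 and Ms4a4c, had the largest differences between the groups, and Vcan, the fourth, had the smallest. Each window runs from 250 bases before to 50 bases after a RefSeq start on GRCm38.p6. The Ccr2, Ms4a4c and Vcan windows lie wholly inside the gene spans given below, so the starts used for them are not the outermost ones. Start windows were matched for 6 of the 7 genes. Capitals mark GAGGAA (a purine-rich core that ETS factors such as PU.1 bind) and GGGCGG (the GC box), on either strand. The Ccr2 window is chr9:124101933-124102232 on the plus strand, the Ly6c2 window (the first of 2) is chr15:75111922-75112221 on the minus strand, the Ms4a4c window is chr19:11407411-11407710 on the plus strand, and the Vcan window is chr13:89742463-89742762 on the minus strand.
Ccr2: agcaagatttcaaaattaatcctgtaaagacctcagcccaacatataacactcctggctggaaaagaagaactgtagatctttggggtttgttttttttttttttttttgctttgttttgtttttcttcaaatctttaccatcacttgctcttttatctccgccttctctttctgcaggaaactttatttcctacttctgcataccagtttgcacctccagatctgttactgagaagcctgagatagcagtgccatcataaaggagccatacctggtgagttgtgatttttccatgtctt
Ly6c2: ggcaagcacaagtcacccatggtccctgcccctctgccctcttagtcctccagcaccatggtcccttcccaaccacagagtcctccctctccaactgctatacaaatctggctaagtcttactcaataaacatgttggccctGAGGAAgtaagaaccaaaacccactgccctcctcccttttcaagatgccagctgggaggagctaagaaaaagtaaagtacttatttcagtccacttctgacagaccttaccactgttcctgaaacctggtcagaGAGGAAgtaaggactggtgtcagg
Ms4a4c: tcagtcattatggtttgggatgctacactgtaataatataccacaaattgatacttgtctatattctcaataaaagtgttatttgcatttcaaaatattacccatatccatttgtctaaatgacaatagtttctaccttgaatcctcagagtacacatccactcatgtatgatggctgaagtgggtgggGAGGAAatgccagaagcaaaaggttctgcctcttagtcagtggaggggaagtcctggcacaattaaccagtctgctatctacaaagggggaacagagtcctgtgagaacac
Vcan: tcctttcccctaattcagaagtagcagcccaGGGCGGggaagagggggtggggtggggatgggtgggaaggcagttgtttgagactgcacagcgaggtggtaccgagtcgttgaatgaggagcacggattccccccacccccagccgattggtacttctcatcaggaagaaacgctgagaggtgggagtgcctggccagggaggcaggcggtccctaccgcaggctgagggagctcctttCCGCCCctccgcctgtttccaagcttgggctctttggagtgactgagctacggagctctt

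The Ly6c2 window held GAGGAA at 2 places and the Ms4a4c window at 1, whereas the Ccr2 and Vcan windows held it at 0. Among all 32851 windows of this length, 28.3% held it. The Vcan window held GGGCGG at 2 places and the other 3 windows at 0, against 35.7% of all windows. TATAAA, the TATA box, was searched on both strands too and found in 0 of the 4 windows, against 13.6% of all windows. The motifs do not overlap one another in these windows. The Ccr2 window had 38% G and C, the Ms4a4c window 40.0%, the Ly6c2 window 50.3% and the Vcan window 61.0%, with a median of 52.7% over all windows. A match describes these letters only.

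The comparison of AD/KO with AD addresses how loss of asrij bears on the state of microglia in the amyloid model. The mean AD/KO level was 20.6% of that in AD for Ccr2, the receptor that marks monocytes, 19.9% for Ly6c2, a monocyte surface antigen, and 19.2% for Ms4a4c, a membrane protein of leukocytes. It was 29.1% for Plac8, 33.6% for Fn1 (fibronectin) and 33.2% for Itga4 (an integrin chain). Vcan (versican) stood at 87.9%. No gene was called by edgeR's quasi-likelihood test: 0 of 21439 genes, and 0 of the 7 monocyte markers, had a Benjamini-Hochberg adjusted p under 0.05, a background of 0% called. Without adjustment, 1072 genes had a p under 0.05. All 7 markers passed the filter on low counts, and all 7 had a negative log2 fold change, as did 52.8% of all genes. In 6 of the 7 each AD/KO library was under each AD library, and Vcan overlapped. Over all genes tested, 21.7% lay lower without overlap in this way. The same 6 had an unadjusted p under 0.05 in the lower direction, where 2.30% of all genes did. With scaling to microglial genes that count of 6 became 0 (unadjusted p = 0.122 for Ccr2, edgeR's test). In that fit 1315 of 21439 genes had an unadjusted p under 0.05 in either direction. The median log2 fold change of the 7 was −1.78, beside −0.05 for all genes tested. It ran from −2.20 to −1.25 with 1 library left out, the latter without AD replicate 2. Such a fit leaves 1 library in a group, whose spread cannot be measured. Markers of other cells are given beside the 7. Ptprc, the pan-leukocyte antigen CD45, stood at 452 and 385 CPM in AD and 252 and 103 CPM in AD/KO, without overlap. The 12 neuron markers all had a positive log2 fold change, with a median of 1.47 and summed levels of 381 and 1270 CPM in AD and 957 and 3016 CPM in AD/KO, which overlapped. The part of these cells in the marker differences was not tested. Bulk counts cannot tell fewer cells of a type from less RNA per cell.

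**Figure D1:**
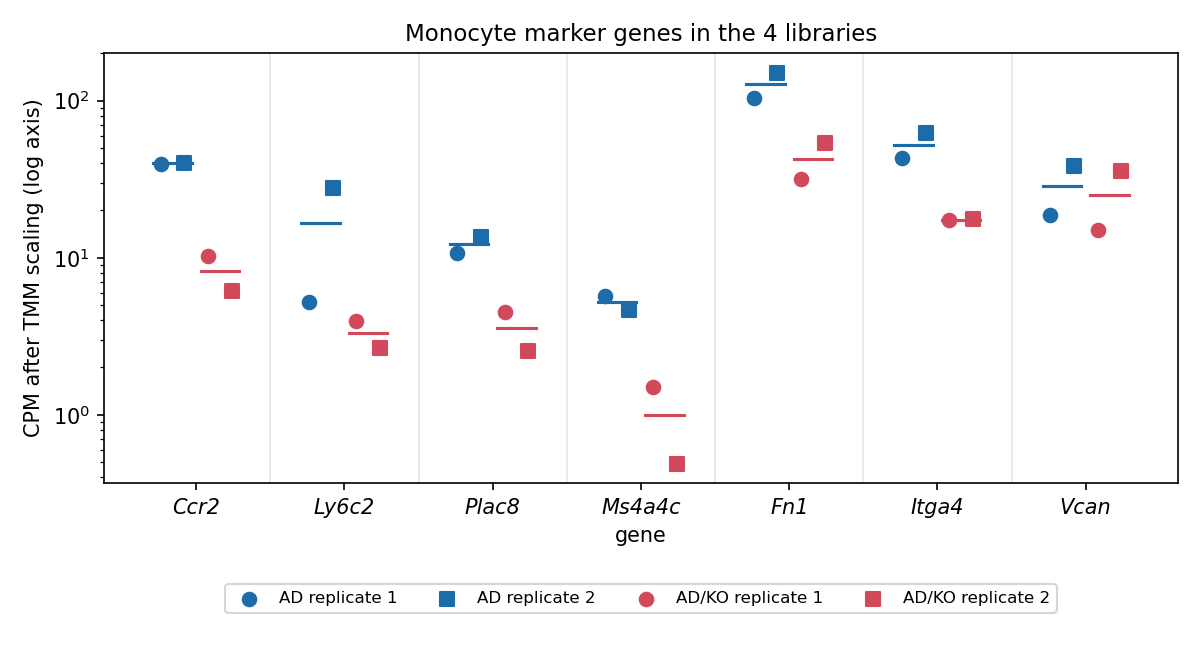
Level of each marker gene in the 4 libraries, in CPM after TMM scaling on a log axis. Circles are replicate 1, squares replicate 2, blue AD, red AD/KO, and lines the group means. Ccr2 stands at 39.8 and 40.0 CPM in AD and at 10.3 and 6.13 CPM in AD/KO, while the groups overlap for Vcan.

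Ccr2 (gene ID 12772, chromosome 9, 124101918 to 124109140, plus strand, protein-coding) is the chemokine receptor itself. It had 548 and 650 reads in AD and 197 and 113 reads in AD/KO, although the AD/KO libraries were the deeper ones. This corresponds to 39.8 and 40.0 CPM in AD and 10.3 and 6.13 CPM in AD/KO. The AD libraries were nearly equal and both stood far above either AD/KO library. The AD mean of 39.9 ± 0.127 CPM was 4.86-fold the AD/KO mean of 8.20 ± 2.93 CPM (SD, n = 2 each), and the log2 fold change was −2.28 (SE 0.38). The gene ranked 18 of 21439 by p in edgeR's quasi-likelihood test (unadjusted p = 0.00198, Benjamini-Hochberg adjusted p = 0.680). DESeq2's own test called it (adjusted p = 0.0219), among 0.440% of 19993 genes called and 0.250% called lower. Ccr2 was the only one of the 7 that DESeq2 called.

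Since the libraries differ in their level of microglial genes, Ccr2 was also set against Cx3cr1, the fractalkine receptor that microglia carry at high level. Ccr2 had 1.28 and 1.77 reads for every 100 reads of Cx3cr1 in the AD libraries. In the AD/KO libraries it had 0.340 and 0.637. The groups did not overlap in this ratio, which does not depend on how the libraries are scaled.

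Ly6c2 (gene ID 100041546, chromosome 15, 75108161 to 75112066, minus strand) encodes part of the Ly6C antigen by which classical monocytes are sorted. It had 72 and 455 reads in AD and 76 and 49 reads in AD/KO. Its level was 5.23 and 27.97 CPM in AD and 3.96 and 2.66 CPM in AD/KO. The groups did not overlap, but AD replicate 2 stood far above the other 3 libraries, which lay close together. The log2 fold change was −2.32 (SE 0.88), and without AD replicate 2 it was −0.59. In AD replicate 2 the neutrophil genes S100a8 and S100a9, subunits of calprotectin, stood at 800 and 751 CPM, against 51.4 to 85.3 CPM for either gene in the other libraries. Of the 14 neutrophil markers 13 were tested, all 13 with a negative log2 fold change, where 52.8% of all genes were lower. Of the 13, only 1 lay lower without overlap, against 21.7% of all genes. The part of neutrophil RNA in the Ly6c2 difference was not tested. For every 100 Ccr2 reads there were 13.1 and 70.0 Ly6c2 reads in AD and 38.6 and 43.4 in AD/KO, so that the highest and the lowest value both came from AD. The transcripts of Ly6c2 and its neighbour Ly6c1, a gene of brain endothelium, match at 98.3% identity over 595 bases, and how reads matching both were counted is not stated. Ly6c1 had 3 and 27 reads in AD and 4 and 39 reads in AD/KO, which makes the Ly6c2 counts uncertain, most of all in AD/KO replicate 2.

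Plac8 (gene ID 231507, chromosome 5, 100551589 to 100572253, minus strand), a small cysteine-rich protein of monocytes and other leukocytes, stood at 10.7 and 13.6 CPM in AD and at 4.54 and 2.55 CPM in AD/KO. Each AD/KO library was under each AD library. The means were 12.2 ± 2.10 and 3.54 ± 1.40 CPM (SD, n = 2 each), a log2 fold change of −1.78 (SE 0.49). Ms4a4c (gene ID 64380, chromosome 19, 11404717 to 11427246, plus strand), a membrane-spanning protein of the MS4A family, had 79 and 76 reads in AD and 29 and 9 reads in AD/KO. Its level was 5.73 and 4.67 CPM in AD and 1.51 and 0.488 CPM in AD/KO. The AD libraries were close to each other, and AD/KO replicate 2 was the lowest. The means were 5.20 ± 0.751 and 1.0 ± 0.724 CPM (SD, n = 2 each), a log2 fold change of −2.37 (SE 0.73). Neither gene was called (Benjamini-Hochberg adjusted p = 0.680 for both in edgeR's test).

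Fn1 and Itga4 are a ligand and a receptor chain. Fn1 (gene ID 14268, chromosome 1, 71585473 to 71653280, minus strand) encodes fibronectin, a matrix protein also made by vascular cells and fibroblasts. It stood at 103 and 151 CPM in AD and at 31.5 and 53.9 CPM in AD/KO, without overlap. The log2 fold change was −1.58 (SE 0.41, adjusted p = 0.680, edgeR quasi-likelihood with Benjamini-Hochberg adjustment). Itga4 (gene ID 16401, chromosome 2, 79255426 to 79333114, plus strand) encodes the alpha 4 integrin chain, by which leukocytes bind the endothelial protein VCAM-1 and fibronectin. It stood at 43.3 and 61.8 CPM in AD and at 17.3 and 17.6 CPM in AD/KO. The AD/KO libraries were nearly equal and both lay below the AD libraries. The log2 fold change was −1.59 (SE 0.32), with the same adjusted p by that test, and the gene ranked 39 by p. Itga4 shares 908 bases of transcript with Cerkl on the other strand, which had 16 and 125 reads in AD and 47 and 142 in AD/KO. Whether the counting used strand is not stated.

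Vcan (gene ID 13003, chromosome 13, 89655309 to 89743027, minus strand) encodes versican, a large matrix proteoglycan that monocytes share with oligodendrocyte precursors and fibroblasts. It stood at 18.8 and 38.6 CPM in AD and at 15.0 and 35.4 CPM in AD/KO. The groups overlapped, and replicate 2 was the higher library of each group. The means of 28.7 ± 14.0 and 25.2 ± 14.4 CPM (SD, n = 2 each) differed by less than the spread within either group, with a log2 fold change of −0.19 (SE 0.58, adjusted p = 0.902, edgeR quasi-likelihood with Benjamini-Hochberg adjustment). Its direction turned to 0.48 without AD replicate 2, to 0.36 without AD/KO replicate 1, and to 0.86 when libraries were scaled to microglial genes. Pdgfra, the growth factor receptor that marks oligodendrocyte precursors, stood at 9.51 and 25.5 CPM in AD and at 14.3 and 31.3 CPM in AD/KO, in which replicate 2 was again the higher. Vcan had 198 and 151 reads for every 100 of Pdgfra in AD and 105 and 113 in AD/KO. This was the 1 readout of Vcan here in which each AD/KO library was under each AD library. Vcan was not set against any other precursor gene, so whether the groups stay apart with another is not shown. Of the 10 precursor markers, 2 had a lower and 8 a higher log2 fold change, with a summed level of 126 and 308 CPM in AD and 236 and 558 CPM in AD/KO. The part of precursor RNA in the Vcan counts was not tested.

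Divided by exon length, the levels in AD were 10.9 CPM per kb for Fn1, 7.64 for Plac8, 6.06 for Ly6c2, 5.90 for Ccr2, 3.76 for Itga4, 2.97 for Ms4a4c and 1.98 for Vcan. Ly6c2, which ranged from 1.91 to 10.2 CPM per kb in AD, did not differ from its neighbours in this order beyond its spread. In AD/KO the order of mean levels per kb was Fn1 at 3.66, Plac8 at 2.23, Vcan at 1.74, Itga4 at 1.25, Ccr2 and Ly6c2 at 1.21 each and Ms4a4c at 0.571. The levels per kb of Itga4, Ccr2 and Ly6c2 in AD/KO differed from each other by less than the spread of Ccr2 (SD 0.433). Vcan, the lowest of the 7 in AD, was the third in AD/KO, with a spread (SD 0.999) that reached its neighbours.

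Because AD/KO replicate 2 had the lowest level of microglial genes, the values were scaled so that the 15 homeostatic microglia genes had the same mean log2 level in every library. Ccr2 was then at 27.5 and 37.5 in AD and at 7.05 and 13.7 in AD/KO, in CPM so scaled. Plac8 stood at 7.38 and 12.8 against 3.11 and 5.69, and Ms4a4c at 3.96 and 4.38 against 1.04 and 1.09. In these 3 of 7 genes each AD/KO library was under each AD library, as did 7.70% of all genes. Fn1 overlapped, at 71.5 and 142 in AD and 21.6 and 120 in AD/KO. So did Itga4, at 30.0 and 58.0 in AD and 11.9 and 39.3 in AD/KO, and Ly6c2, at 3.61 and 26.2 in AD and 2.72 and 5.93 in AD/KO. On this scale the median difference over all genes was 0.75 on the log2 scale, and that of the 7 markers −1.20. The log2 fold change was −1.65 for Ccr2, −0.59 for Fn1, −0.78 for Itga4 and 0.86 for Vcan.

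**Figure D2:**
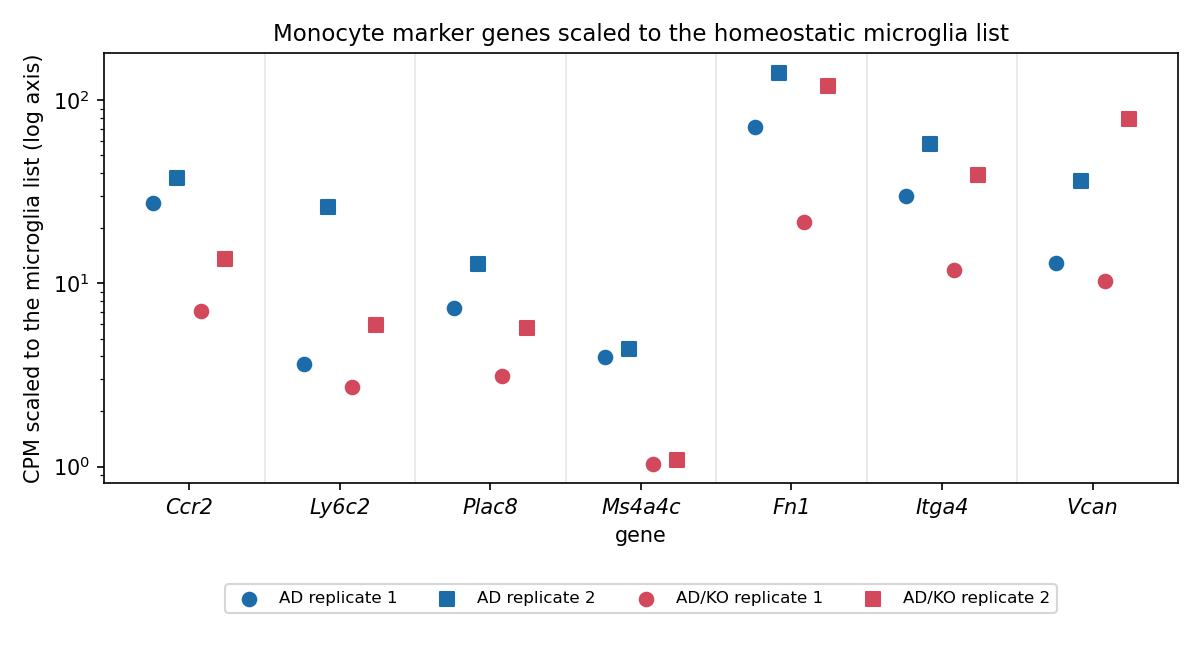
The same genes after scaling each library to the 15 homeostatic microglia genes, in scaled CPM on a log axis. Symbols and colours are as in the plot of TMM-scaled CPM. Ccr2, Plac8 and Ms4a4c keep the AD/KO libraries below the AD libraries, and the other 4 genes overlap.

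Of 20 other genes known from classical monocytes, 20 had a lower and 0 a higher log2 fold change, where 52.8% of all genes were lower. Of the 20, 15 lay lower without overlap, against 21.7% of all genes. None passed the adjusted threshold (0 by edgeR and 0 by DESeq2). In edgeR's test 11 had an unadjusted p under 0.05, where 2.30% of all genes did in the lower direction. The median was −1.80, and −0.90 without AD replicate 2, the library rich in neutrophil transcripts. Scaled to the microglia list, 3 of the 20 lay lower without overlap, as did 7.70% of all genes, and the median was −0.96. Lyz2, a lysozyme that neutrophils and macrophages also make, stood at 301 and 815 CPM in AD and 164 and 142 CPM in AD/KO. Ahnak, a large scaffold protein, stood at 226 and 202 CPM against 64.5 and 108 CPM. Samhd1, a nucleotide hydrolase of myeloid cells, stood at 144 and 120 CPM against 92.5 and 55.4 CPM. F13a1, a clotting factor chain made by monocytes and border macrophages and picked for naming after its values were seen, stood at 39.5 and 39.3 CPM in AD and 14.9 and 14.7 CPM in AD/KO. Its AD libraries were as close to each other as those of Ccr2.

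**Figure D3:**
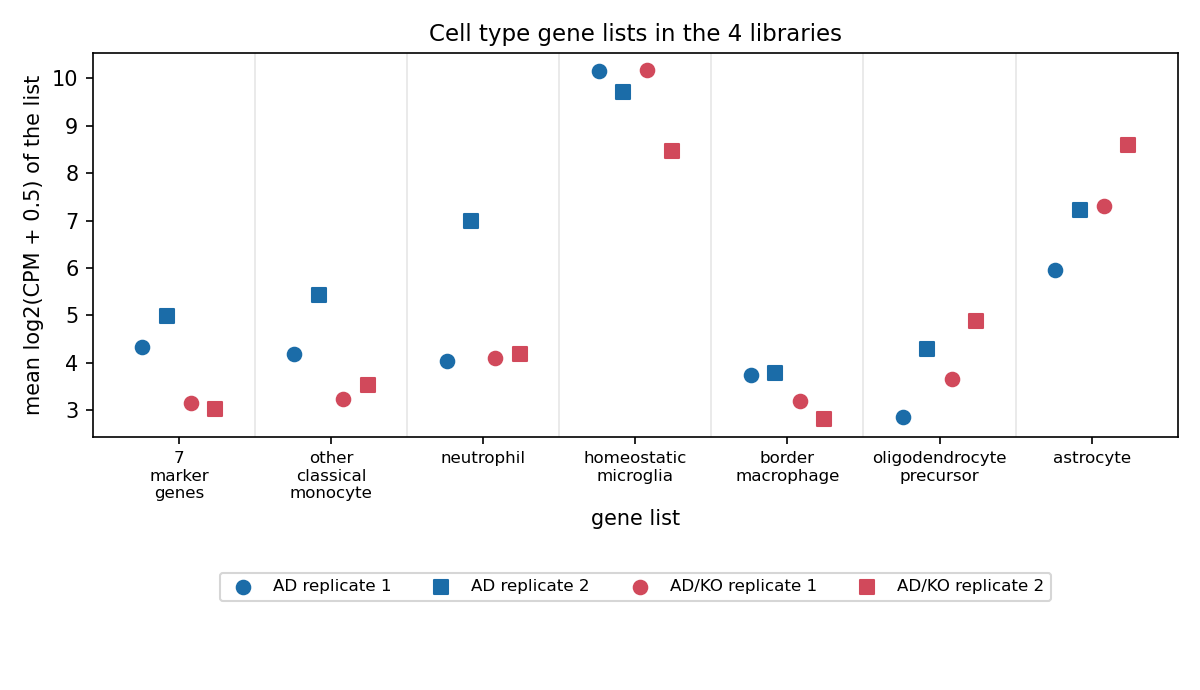
Mean log2(CPM + 0.5) of 7 gene lists in each library, with AD in blue, AD/KO in red, circles for replicate 1 and squares for replicate 2. The monocyte markers lie at 4.34 and 4.98 in AD and 3.15 and 3.01 in AD/KO, the neutrophil list stands out in AD replicate 2 at 7.0, and the microglia list is lowest in AD/KO replicate 2 at 8.47.

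Patrolling monocytes are the other blood subset, with low Ly6C and CCR2. Of 12 genes listed for them, 11 were tested. Of these, 10 had a lower log2 fold change and 7 lay lower without overlap, against 52.8% and 21.7% of all genes. By edgeR or DESeq2 0 were called. In edgeR's test 5 had an unadjusted p under 0.05, all lower, where 2.30% of all genes did so. The median was −1.72. Scaled to the microglia list, 0 lay lower without overlap. Itgal, the alpha chain of the leukocyte integrin LFA-1, stood at 31.5 and 65.8 CPM in AD and 16.2 and 13.4 CPM in AD/KO. Nr4a1, a nuclear receptor on which patrolling monocytes depend and which neurons also express upon activity, was the 1 gene higher, at 19.3 and 34.5 CPM in AD and 41.2 and 65.2 CPM in AD/KO. Eno3, an enolase, overlapped between the groups.

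The ligands of CCR2 were scarce. Ccl2 had 6 and 9 reads in AD and 6 and 7 in AD/KO, and Ccl7 had 1 and 5 reads against 4 and 2, and neither reached the filter. Ccl12, the mouse ligand with the highest level here, stood at 11.2 and 9.28 CPM in AD and 7.09 and 1.09 CPM in AD/KO. The log2 fold change was −1.32 (SE 0.90). Each AD/KO library was under each AD library, with replicate 2 the lowest. In the whole list of ligands and related receptors, 8 of 12 genes were tested, 7 with a lower and 1 with a higher log2 fold change. By edgeR or DESeq2 0 were called. In edgeR's test 3 had an unadjusted p under 0.05, 2 lower and 1 higher, where 2.30% of all genes did in the lower direction.

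The alpha 4 chain pairs with Itgb1 or, in lymphocytes and some myeloid cells, with Itgb7. Itgb1 stood at 225 and 172 CPM in AD and 182 and 95.3 CPM in AD/KO, which overlapped. Itgb7 stood at 14.8 and 15.2 CPM in AD and 7.66 and 5.92 CPM in AD/KO, without overlap, a log2 fold change of −1.15 (SE 0.37). Vcam1, which encodes the endothelial ligand, overlapped at 12.9 and 15.0 CPM against 10.9 and 17.5 CPM. Itga4 had 19.3 and 35.95 reads for every 100 of Itgb1 in AD and 9.53 and 18.5 in AD/KO, the groups being apart by a narrow margin. Across the 14 listed integrin partners and ligands, 13 were tested, 8 with a lower and 5 with a higher log2 fold change, with a median of −0.36.

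Genes that act with versican had mixed directions. Of 17 hyaluronan, link protein and protease genes, 16 were tested, 6 with a lower and 10 with a higher log2 fold change, and the median was 0.93. Bcan, the brain proteoglycan brevican, stood at 63.0 and 200.1 CPM in AD and 241 and 658 CPM in AD/KO, and Ncan, neurocan, at 48.2 and 114 CPM against 169 and 430 CPM. Cd44, a hyaluronan receptor of leukocytes, was lower without overlap, at 35.9 and 86.8 CPM against 12.9 and 20.4 CPM, and was chosen for naming after its values were seen. The summed astrocyte list moved with the matrix genes (1903 and 4480 CPM in AD, 4682 and 11958 CPM in AD/KO), and its part in them was not tested.

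Other members of the families of Ly6c2 and Ms4a4c, not all of them neighbours on the chromosome, were compared as well. Among 12 other Ly6 genes, 9 were tested, 4 with a lower and 5 with a higher log2 fold change, and the median was 0.003. Ly6e, the most abundant, overlapped at 389 and 294 CPM in AD and 355 and 136 CPM in AD/KO. Among 7 other Ms4a4, Ms4a6 and Ms4a7 genes, 5 were tested and 5 had a lower log2 fold change, with a median of −1.06. Ms4a6c stood at 17.3 and 13.5 CPM in AD and 9.59 and 5.16 CPM in AD/KO, without overlap, and Ms4a6b and Ms4a6d overlapped.

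Markers of other cells that could carry the same genes were also read. Of 10 border macrophage markers, 9 had a lower log2 fold change and 7 lay lower without overlap, against 52.8% and 21.7% of all genes. The list summed to 835 and 569 CPM in AD and 821 and 320 CPM in AD/KO, which overlapped. Stab1 alone held 679 and 427 CPM of this in AD and 739 and 251 CPM in AD/KO, so that the sums mostly follow this gene. Mrc1, the mannose receptor of border macrophages, stood at 69.2 and 43.1 CPM in AD and 40.7 and 32.2 CPM in AD/KO. T and NK cell markers were near 0: the 14 listed summed to between 4.59 and 10.4 CPM, Trac had 0 reads in every library, and Cd3e had 0 reads in both AD libraries. B cell markers summed to 45.8 and 61.5 CPM in AD and 26.9 and 25.5 CPM in AD/KO, but Cd22, which microglia also express, held 26.2 and 26.4 CPM of this in AD and 10.7 and 5.59 CPM in AD/KO. Without Cd22 the sums were 19.6 and 35.2 CPM in AD and 16.2 and 19.9 CPM in AD/KO, and the groups overlapped. The part of border macrophages and B cells in the marker differences was not tested.

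The profile of each gene over the 4 libraries was then compared with that of Ccr2, as the root mean square difference between log2(CPM + 0.5) values centred on their mean. Of 14589 protein-coding genes with a mean of at least 1 CPM, Ccr2 included, the 5 nearest were Cd244a (0.061), Sirpb1c (0.070), Lilrb4a (0.115), Mmp12 (0.118) and Tnf (0.130). Cd244a, a receptor of the SLAM family, stood at 17.6 and 19.2 CPM in AD and 4.95 and 2.66 CPM in AD/KO. Lilrb4a, an inhibitory receptor of myeloid cells, stood at 72.9 and 82.9 CPM against 20.9 and 14.6 CPM. Tnf, the inflammatory cytokine, stood at 7.98 and 9.90 CPM against 2.29 and 0.977 CPM. Sirpb1c stood at 3.85 and 4.12 CPM against 0.574 and 0.217 CPM, and Mmp12 at 2.83 and 2.58 CPM against 0.209 and 0 CPM. The log2 fold changes of Sirpb1c (−3.31) and Mmp12 (−4.59) were larger than that of Ccr2 (−2.28). The 0.5 CPM added before the log narrows differences at levels this low. The counts of Sirpb1c and Lilrb4a are uncertain, since their transcripts match Sirpb1b at 97.3% and Lilr4b at 95.4% identity. By the same measure Ms4a4c came at place 9 (0.195), Plac8 at 41 (0.311), Itga4 at 130 (0.475), Fn1 at 387 (0.644), Ly6c2 at 1701 (0.855) and Vcan at 8647 (1.27). The likeness rests on 4 libraries, and the markers therefore range from near neighbours of Ccr2 to a gene with another pattern.

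**Figure D4:**
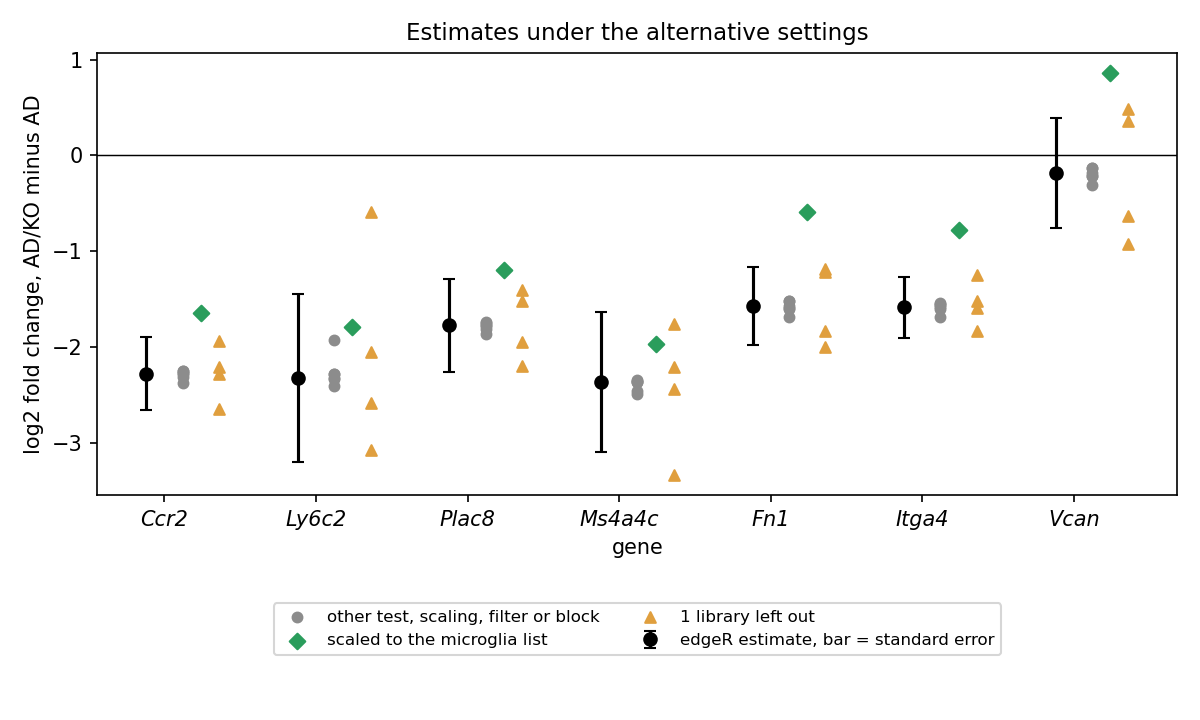
Log2 fold change (AD/KO minus AD) of each marker gene, with the edgeR estimate and its standard error in black, other tests, scalings, filters and the replicate block in grey, scaling to microglial genes in green, and fits without 1 library in orange. Ccr2 stays between −2.65 and −1.65, Ly6c2 comes to −0.59 without AD replicate 2, and Vcan crosses 0.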

How the data were processed

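The authors deposited 1 table of raw whole-number read counts per gene symbol for each library. FastQC, HISAT2, SAMtools, Subread featureCounts and DESeq2 1.30.0 and the build mm10 are named in the submitters' processing notes. Their settings, the use of strand and the annotation are not given in the sources used here. Per the labels' protocols, RNA was depleted of ribosomal RNA and libraries were stranded. Each table had 11 broken lines with no count, which were left out. All 49993 symbols matched RefSeq for GRCm38.p6. 0 columns lacked a sample.

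Genes were tested with edgeR 4.0.16 in R 4.3.3 (filterByExpr at a count of 10 and a total of 15, TMM scaling, quasi-likelihood F-test, no covariates, all 4 libraries), with Benjamini-Hochberg adjustment over 21439 genes at 0.05. The standard error is the log2 fold change divided by the square root of F. On simulated data for this comparison, 83% of 200 genes changed by 3 on the log2 scale were called among 20866 genes. Of 170 calls, 2.35% were false. The simulation gave every gene the same spread, drew the libraries independently and changed no genes of low level. The real libraries differ in these respects, so that the 83% does not measure the power of the test on them. Alternatives were DESeq2 1.42.0, other scalings and filters, the replicate block and leaving out each library. Near-identical transcripts (at least 95% over 100 bases) were searched with BLAST 2.17.0 in GENCODE M21, which also gave exon lengths. With no molecular identifiers, counts are not independent molecules.

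The members and lists were chosen with earlier results of these data known. The named genes were the 7 members, the 3 most abundant genes of each list, listed partners such as Ccl2 and Itgb7, and the 5 genes most like Ccr2. Other names were chosen after their values were seen. 1 listed gene is not reported here.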

Additional observations from a re-analysis of the deposited data

How the results depend on the processing

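The alternatives gave 121 values, of which 102 had the reported direction and the reported side of the threshold, or lay within the spread between replicates, 9 moved further, 7 passed the threshold where the reported value had not, and 3 changed direction, all 3 of them Vcan (0.86 with scaling to the microglia list, 0.36 without AD/KO replicate 1, 0.48 without AD replicate 2). The number of genes called was 0 with DESeq2 size factors, total counts, scaling to the microglia list, no filter and a filter at a mean of 1 CPM (from 878 to 1548 at an unadjusted p under 0.05 in edgeR's test). It was 88 with DESeq2's test, which called 1 marker, Ccr2 (−2.25). With 1 library left out it ran from 0 to 524 genes, the latter without AD replicate 2, and from 0 to 1 markers. The 1 was Ly6c2 (−3.08, adjusted p = 0.0465, edgeR quasi-likelihood with Benjamini-Hochberg adjustment) without AD replicate 1, in a fit that takes the lone AD library to vary like the AD/KO group and in which 48 genes were called.

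The median of the other classical monocyte genes was −0.96 with scaling to the microglia list, which moved the median of all genes from −0.05 to 0.75, and ran from −2.26 to −0.90 with 1 library left out. The median of the 7 markers ran from −2.20 to −1.25. With 1 library left out, the log2 fold change ran from −2.65 to −1.95 for Ccr2, −3.08 to −0.59 for Ly6c2, −2.20 to −1.41 for Plac8, −3.34 to −1.77 for Ms4a4c, −2.0 to −1.19 for Fn1, −1.83 to −1.25 for Itga4 and −0.92 to 0.48 for Vcan. The cause of these shifts was not tested.

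AD and AD/KO share the replicate numbers 1 and 2, with no label that a number marks a litter, batch or day. Across genes, libraries with the same number deviated together, with a correlation of 0.718. With 2 libraries in each group, the sign of this correlation depends on how the libraries are numbered. Adding the replicate block called 4333 genes, 20.2% of those tested (2878 of them higher, 1455 lower), and 5 of the 7 markers: Ccr2 at −2.32, Plac8 at −1.81, Ms4a4c at −2.50, Fn1 at −1.60 and Itga4 at −1.57. It also called 14 of the 20 other classical monocyte genes lower and 0 higher, and 12 of the 12 neuron markers higher. With 2 libraries in each group, the block leaves almost nothing from which the spread between libraries can be measured. Its calls are therefore weakly founded. Genes with few reads, such as Ms4a4c with 9 reads in AD/KO replicate 2, are limited by depth.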

Other observations

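AD replicate 2 also held transcripts of granulocyte precursors, and these are given as values chosen after they were seen. Mpo, the myeloperoxidase of primary granules, stood at 20.2 CPM in that library, at 0.435 CPM in the other AD library, and at 0.730 and 0.163 CPM in AD/KO. Elane, neutrophil elastase, stood at 11 CPM against 0.145 CPM and, in AD/KO, 0.209 and 0.109 CPM. Ccr2 did not share this difference: its level was 39.8 CPM in AD replicate 1 and 40.0 CPM in AD replicate 2. Among other genes of classical monocytes, Chil3, a chitinase-like protein that neutrophils also carry, stood at 10.6 and 294 CPM in AD and 15.1 and 25.7 CPM in AD/KO.

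Of 9 dendritic cell markers 7 were tested, 5 with a lower and 2 with a higher log2 fold change (Flt3 and Zbtb46), with a median of −0.52. Clec9a and Cd209a, markers of dendritic cell subsets, lay lower without overlap. They were the only 2 of the 7 tested genes to do so, near the share of 21.7% among all genes. They are named after their values were seen. They were nearly equal within AD (2.03 and 2.09 CPM for Clec9a, 4.65 and 4.43 CPM for Cd209a) and lower without overlap in AD/KO (0.626 and 0.543 CPM for Clec9a, 1.62 and 1.03 CPM for Cd209a). Neither was called (Benjamini-Hochberg adjusted p = 0.680 for both in edgeR's test). Flt3, a receptor of dendritic cell precursors, stood at 6.53 and 7.38 CPM in AD and at 10.2 and 22.5 CPM in AD/KO. It lay higher without overlap, as did 4354 of the 21439 genes tested.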
